A study of Mus musculus with 4 samples.

Results

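The Frizzled receptors are the cell-surface receptors for Wnt proteins. The family was taken by name, as the rows of the deposited count table whose Entrez gene numbers belong to Fzd1 to Fzd10, which gave 10 genes of 24116. All 10 passed the filter on low counts that left 14194 genes for testing. The rule itself uses no measured value, but the family was selected on its knockout-minus-wild-type differences in these same libraries, which were already known. Those differences are therefore given as a description, with no test of the family, and nothing is supported with them.

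RNA-seq was carried out on 4 libraries of mouse embryonic stem cells of the strain labelled 12910la, grown with serum and LIF on gelatin. The libraries titled as knockout numbered 2 and came from cells given a guide RNA against Kdm2a, sorted for GFP and expanded from a single clone. The wild-type libraries also numbered 2, and no transfection is recorded for them apart from a protocol text that all samples share. Kdm2a encodes a demethylase of histone H3 lysine 36. The titles speak of a knockout and the genotype field of the same samples speaks of a knock-down. Being of 1 clone, the knockout cells cannot be told apart from any other property of that clone. No label ties the libraries to separate cultures. Errors and p-values therefore measure only how far these libraries differ, which may be technical.

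Total counts lay between 18844246 and 19056529 per library. Kdm2a had 3710 and 4753 counts in the libraries labelled knockout, against 2899 and 3554 in wild type, a log2 fold change of 0.44 (SE 0.24). The RNA of the targeted gene was thus not lower. A knock-down in the sense of less Kdm2a RNA was not seen in these counts. RNA counts do not measure the protein, so they cannot check a knockout of it in either direction. Every direction below therefore rests on the titles. Knockout 1 was nearer to wild type than to knockout 2: across genes, which are no independent replicates, Pearson's r of log2 CPM was 0.952 between the knockout libraries, but 0.984 and 0.978 between knockout 1 and the wild-type libraries 1 and 2. It was 0.968 between the wild-type libraries, and 0.938 and 0.959 between knockout 2 and wild type 1 and 2. By these values the libraries did not group by label. The 8 embryonic stem cell markers were all present, with summed levels of 6130 and 4970 CPM in the libraries labelled knockout and of 5920 and 5610 CPM in wild type. Values are CPM (counts relative to the TMM-scaled library size) unless another scale is named.

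A Frizzled protein binds a Wnt through a cysteine-rich domain outside the cell and passes the signal through its membrane-spanning part to Dishevelled. With the co-receptors LRP5 and LRP6 this stabilises beta-catenin, which acts in the nucleus with TCF/LEF factors, and without them Frizzleds act in planar cell polarity. In mouse embryonic stem cells Wnt signalling through beta-catenin is known to favour self-renewal. By sequence the family falls into the subgroups Fzd1, Fzd2 and Fzd7, then Fzd5 and Fzd8, then Fzd4, Fzd9 and Fzd10, and last Fzd3 and Fzd6.

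Gene structure split the family. In the GENCODE M21 annotation of GRCm38, Fzd1, Fzd2, Fzd7, Fzd8, Fzd9 and Fzd10 have 1 exon each, Fzd4 and Fzd5 have 2, and Fzd3 and Fzd6 have 7. Their coding lengths are alike, from 1611 bases for Fzd4 to 2127 bases for Fzd6, whereas the summed exon length runs from 2293 bases for Fzd9 to 12804 bases for Fzd3. Reads were 50 bases long, per the labels. No 50-base stretch of a Frizzled transcript occurs in a transcript of another Frizzled gene, so reads that match exactly cannot be swapped between members. For Fzd5, 16.45% of such stretches lie in Gm38058, a gene on the opposite strand, and for Fzd6, 2.12% lie in Gm26704, also on the opposite strand. Without a stated strand setting those reads cannot be assigned to a strand.

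KDM2A has a zinc finger of the CXXC type that binds unmethylated CpG, and so CG dinucleotides were counted upstream of the genes. Neither DNA methylation nor KDM2A binding was measured in these libraries, so the counts describe sequence only. Upstream sequence was matched in RefSeq for 6 members (Fzd1, Fzd4, Fzd5, Fzd7, Fzd9 and Fzd10). Shown are the 250 bases before the start of Fzd10 and Fzd7, the members above 5 CPM with the largest fitted differences, and of Fzd5, the member with the highest mean CPM, which differed little. They are given 5′ to 3′ on the gene's strand, from RefSeq on GRCm38.p6, with CG in capitals. The windows are chr5:128600856-128601105 (plus strand) for Fzd10, chr1:59481897-59482146 (plus strand) for Fzd7 and chr1:64737751-64738000 (minus strand) for Fzd5.
Fzd10: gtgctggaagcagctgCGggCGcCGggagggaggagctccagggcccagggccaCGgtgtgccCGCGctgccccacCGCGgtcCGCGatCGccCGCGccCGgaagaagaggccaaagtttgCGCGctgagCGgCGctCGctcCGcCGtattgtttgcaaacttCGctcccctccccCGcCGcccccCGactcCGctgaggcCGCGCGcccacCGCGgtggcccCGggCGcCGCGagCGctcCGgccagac
Fzd7: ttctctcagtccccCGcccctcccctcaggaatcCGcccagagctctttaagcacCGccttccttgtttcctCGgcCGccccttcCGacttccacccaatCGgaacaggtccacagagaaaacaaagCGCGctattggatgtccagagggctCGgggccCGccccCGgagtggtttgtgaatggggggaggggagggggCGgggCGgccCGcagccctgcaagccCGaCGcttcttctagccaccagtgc
Fzd5: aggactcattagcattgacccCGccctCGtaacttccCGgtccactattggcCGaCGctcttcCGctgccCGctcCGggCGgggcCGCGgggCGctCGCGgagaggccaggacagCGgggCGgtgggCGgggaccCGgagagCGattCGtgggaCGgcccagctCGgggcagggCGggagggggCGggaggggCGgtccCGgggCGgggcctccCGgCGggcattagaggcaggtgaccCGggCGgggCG

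The Fzd10 window held 37 CG, that of Fzd7 held 17 and that of Fzd5 held 32. Among the 32851 upstream windows of this length in the table, the median was 6 CG, and 97.8%, 76.5% and 95.4% of them had fewer than Fzd10, Fzd7 and Fzd5. The other Frizzled windows were also above the median, at 42 CG for Fzd9, 25 for Fzd4 and 12 for Fzd1. The windows were not limited to coding or tested genes. These percentages therefore do not compare the Frizzled genes with other expressed genes. The letters CTTTGAT, a TCF/LEF core searched on both strands, were in none of the 6 windows and in 3.21% of all windows.

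Fzd5 and Fzd7 made up most of the Frizzled transcript pool. For comparison between genes, counts were divided by summed exon length and scaled to a common total over 21163 genes with a length, as in TPM (TPM-like units). Fzd5 and Fzd7 together held 78.9% and 82.5% of the summed Frizzled level in the libraries labelled knockout, and 80.8% and 81.6% in wild type. Fzd10 came next in every library, at 10.0% and 10.2% in knockout and 6.95% and 6.59% in wild type. The other 7 members each stayed under 5% in every library. The summed level of the 10 genes was 368 and 488 TPM-like units in the libraries labelled knockout, against 336 and 302 in wild type, so knockout 2 was the highest and wild type 2 the lowest. In bulk RNA, a change in the number of cells that use a gene and a change in RNA per cell cannot be told apart.

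**Figure D1:**
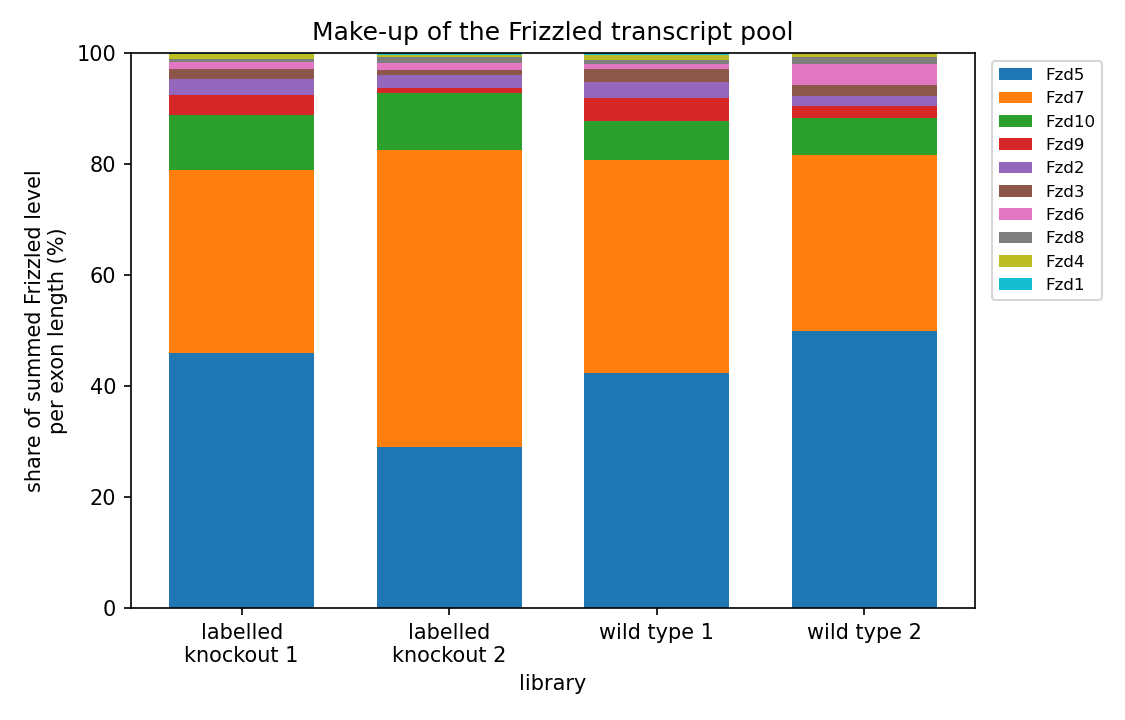
Stacked bars give each Frizzled gene's share, in percent, of the summed Frizzled level per exon length in each of the 4 libraries. Fzd5 is the largest share in knockout 1 (46.0%), wild type 1 (42.3%) and wild type 2 (49.9%), and Fzd7 is the largest in knockout 2 (53.5%).

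Split where the ranges of neighbours did not overlap, the order of levels had 4 steps. Over the 4 libraries Fzd7 averaged 152 and Fzd5 151 TPM-like units, and their ranges overlapped. Fzd10 followed at 32.4, below both in every library and above all others. Then came Fzd9 (9.52), Fzd2 (9.21), Fzd3 (6.39), Fzd6 (6.21), Fzd8 (3.19) and Fzd4 (2.74), in which each neighbouring pair had overlapping ranges. Fzd6 nevertheless lay above Fzd8 in every library. Fzd1, at 0.969, lay below Fzd4 in every library, and their ranges did not overlap. This order depends on the length used. With coding length the mean share was 52.1% for Fzd5 and 33.2% for Fzd7, against 41.8% and 39.2% with exon length. In CPM, with no length, Fzd3 lay above Fzd10 in both wild-type libraries (26.5 and 18.6 CPM for Fzd3, 20.2 and 16.0 CPM for Fzd10) and below it in both labelled knockout. Per coding length the order was the same, though in wild type 2 Fzd3 and Fzd10 were nearly level. The place of Fzd10 above Fzd3 in every library thus holds with exon length only among these 3 scales. For Fzd8, the GENCODE exon model is 5974 bases, while RefSeq spans 3346 bases, and with RefSeq spans its mean share of the pool was 1.53% in place of 0.853%.

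**Figure D2:**
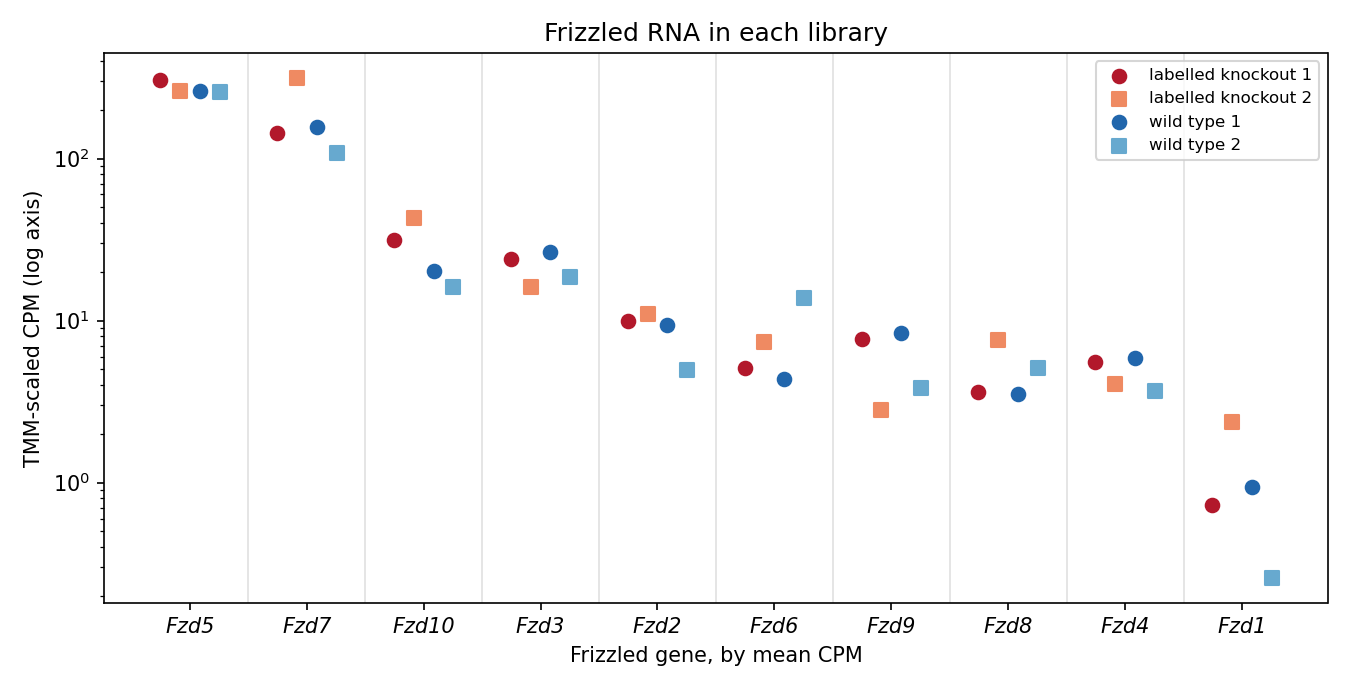
Each point is the CPM of a Frizzled gene in 1 library, on a log axis, with genes ordered by mean CPM. The libraries labelled knockout lie above both wild-type libraries for Fzd10 (31.3 and 42.9 against 20.2 and 16.0 CPM) and by a small margin for Fzd2, and the groups overlap for the other 8 genes.

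Among the subgroup of Fzd4, Fzd9 and Fzd10, Fzd10 (Entrez 93897, chr5:128601106-128604093) had the clearest separation of the groups. In the mouse embryo Fzd10 is known from the neural tube. It had 600 and 780 counts in the libraries labelled knockout, against 386 and 309 in wild type, or 31.3 and 42.9 CPM against 20.2 and 16.0 CPM. Both knockout values lay above both wild-type values. The means were 37.1 ± 8.15 CPM in knockout and 18.1 ± 2.93 CPM in wild type (SD, n = 2 each), a log2 fold change of 1.04 (SE 0.31). It was 0.80 without knockout 2 and 1.24 without knockout 1. Fzd10os, a long non-coding RNA gene next to Fzd10, had 27 and 27 counts in knockout, against 38 and 26 in wild type, so its groups overlapped.

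Fzd10 also held a larger part of the Frizzled pool in the libraries labelled knockout, at 10.1 ± 0.0917% of the summed level against 6.77 ± 0.255% in wild type (SD, n = 2 each). This share rests on the same counts and is no separate evidence.

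Fzd9 (Entrez 14371, chr5:135248938-135251047), whose loss in mice affects the hippocampus and bone, went by library and not by group. It had 7.73 and 2.80 CPM in the libraries labelled knockout, against 8.41 and 3.83 CPM in wild type. The values of knockout 1 and wild type 1 were near each other and those of knockout 2 and wild type 2 were lower. The log2 fold change was -0.22 (SE 0.63). Fzd4 (Entrez 14366, chr7:89404366-89410110), the receptor for norrin in the vessels of the retina, had the same layout at 5.59 and 4.07 CPM in knockout and 5.85 and 3.68 CPM in wild type. Its log2 fold change was 0.02 (SE 0.48), and it turned to -0.01 with upper-quartile scaling and to -0.02 with library totals.

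In the subgroup of Fzd1, Fzd2 and Fzd7, the difference of Fzd7 rested on 1 library. Fzd7 (Entrez 14369, chr1:59482147-59486955) has been described as the main Wnt receptor of human pluripotent stem cells. It had 143 and 314 CPM in the libraries labelled knockout, against 156 and 108 CPM in wild type. Knockout 1 lay between the wild-type libraries and knockout 2 stood 2.19 times above knockout 1. The means were 229 ± 121 CPM in knockout and 132 ± 34.0 CPM in wild type (SD, n = 2 each), with a log2 fold change of 0.80 (SE 0.39), which was 0.13 without knockout 2 and 1.25 without knockout 1.

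Fzd2 (Entrez 57265, chr11:102604431-102608058), which acts with Fzd1 in closure of the palate in mice, had 9.97 and 11.0 CPM in the libraries labelled knockout, against 9.45 and 4.92 CPM in wild type. The groups did not overlap, but knockout 1 and wild type 1 were close, and wild type 2 stood apart as the low library. The log2 fold change of 0.54 (SE 0.45) was 0.16 without wild type 2. Fzd1 (Entrez 14362, chr5:4753839-4758216) was near the limit of detection, with 14 and 43 counts in knockout and 18 and 5 in wild type. Its groups overlapped, and its log2 fold change of 1.36 (SE 0.89) was the largest of the family and the least certain. It was 0.29 without knockout 2 and 2.54 without wild type 1.

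Fzd5 (Entrez 14367, chr1:64730558-64737750), which mice need for the vessels of the yolk sac, was the steadiest member. It had 305 and 261 CPM in the libraries labelled knockout, against 261 and 258 CPM in wild type. The highest library was 1.18 times the lowest, the smallest such ratio of the 10 genes. Its log2 fold change was 0.13 (SE 0.21). Fzd8 (Entrez 14370, chr18:9212856-9216201), the close relative of Fzd5 that acts with it in the eye, had 3.60 and 7.58 CPM in knockout and 3.50 and 5.13 CPM in wild type. Both libraries numbered 2 were above both numbered 1, and the log2 fold change was 0.37 (SE 0.53).

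Fzd3 and Fzd6 act in planar cell polarity, in axon tracts and in the patterning of hair. Fzd3 (Entrez 14365, chr14:65192441-65262463) had 23.9 and 16.2 CPM in the libraries labelled knockout, against 26.5 and 18.6 CPM in wild type. Each knockout library lay slightly below the wild-type library of its number, while the groups overlapped, with a log2 fold change of -0.17 (SE 0.35). Fzd6 (Entrez 14368, chr15:39006149-39038192) had 5.12 and 7.42 CPM in knockout and 4.39 and 13.8 CPM in wild type. Wild type 2 was 3.14 times wild type 1, so the spread within wild type exceeded the difference between groups, and the log2 fold change was -0.54 (SE 0.59). Without wild type 2 it was 0.52.

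**Figure D3:**
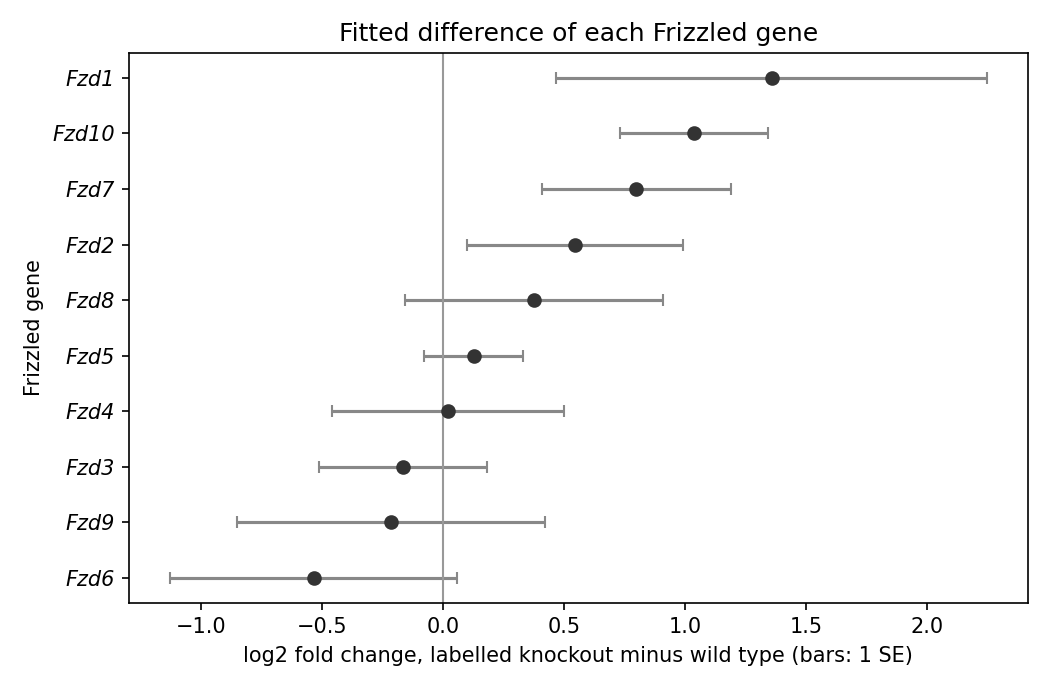
Points give the fitted log2 fold change of each Frizzled gene, labelled knockout minus wild type, and bars give 1 SE. The values run from -0.54 (Fzd6) to 1.36 (Fzd1), and none passed the adjusted threshold.

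Across the family, 7 of 10 genes had a positive log2 fold change and 3 a negative one, with a median of 0.25. Among all genes tested, 50.5% were positive and the median was 0.00. No Frizzled gene passed edgeR's quasi-likelihood test at an adjusted p under 0.05, and 0% of the 14194 genes did. At an unadjusted p under 0.05 the count was 1 of 10, Fzd10, against 1.70% of all genes (0.888% with a positive fold change). DESeq2 also called 0 of 10, where it called 2 genes in all or 0.0141%, and had 1 of 10 (Fzd10) at an unadjusted p under 0.05, against 2.35% of genes (1.51% with a positive fold change). Both knockout libraries were above both wild-type libraries for 2 of 10 (Fzd2 and Fzd10), against 11.6% of all genes, and below them for 0 of 10, against 12.7%. Knockout 2 was the highest library for 5 of 10 members (Fzd1, Fzd2, Fzd7, Fzd8 and Fzd10), against 33.6% of genes, and wild type 2 the lowest for 6 of 10, against 22.5%. Both libraries numbered 1 lay above both numbered 2 for 4 members, against 25.9% of genes, and the reverse held for 2 members, against 24.1%. Since the family was chosen with this contrast known, nothing is read from these counts.

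Markers of other cells differed between the libraries too. The summed level of 6 mesoderm and primitive streak markers was 13.9 and 29.0 CPM in the libraries labelled knockout, against 16.3 and 19.4 CPM in wild type. For 6 trophoblast markers it was 64.8 and 111 CPM in knockout and 92.0 and 53.6 CPM in wild type, and for 7 primitive endoderm markers 10.7 and 18 CPM in knockout and 13.8 and 6.58 CPM in wild type. These sums rest on few genes, and knockout 2 was the highest library in all 3, as it was for Fzd1, Fzd2, Fzd7, Fzd8 and Fzd10. It was also the highest library for 33.6% of all genes tested. Eomes, which stands in both the mesoderm and the trophoblast list, had 198 and 471 counts in the libraries labelled knockout, against 244 and 321 in wild type. Tfap2c, the most abundant trophoblast marker, had 833 and 1365 counts in knockout and 1268 and 446 in wild type. Other members ran the other way: knockout 2 was the lowest library for Tbx6, with 53 and 23 counts in knockout and 39 and 36 in wild type, and for Krt8, with 208 and 167 counts in knockout and 243 and 251 in wild type. In the primitive endoderm list, knockout 2 was the highest library for Foxa2, Sox7 and Dab2. Foxa2 had 1 and 59 counts in knockout and 1 and 0 in wild type, and Sox7 had 11 and 60 in knockout and 5 and 12 in wild type. Gata4 and Gata6 were highest in wild type 1, and Pdgfra and Sox17 were lowest in knockout 2. The 6 neural markers summed to 84.1 and 59.2 CPM in knockout and to 64.5 and 46.9 CPM in wild type, a sum set by Neurod1, which had 972 and 58 counts in knockout and 678 and 294 in wild type. Neurod1 was lowest in knockout 2, and the other neural markers that passed the filter were highest there. Pax6 had 123 and 251 counts in knockout and 89 and 129 in wild type, Sox1 had 255 and 367 in knockout and 175 and 250 in wild type, and Nes had 257 and 367 in knockout and 286 and 229 in wild type. All 4 tested neural markers had a positive log2 fold change, against 50.5% of all genes tested, with a median of 0.46. Neurod1 among them was at 0.09 (SE 1.02). The 6 fibroblast markers summed to 36.6 and 20.0 CPM in knockout and 45.5 and 20.7 CPM in wild type, and the 7 markers of 2-cell-like cells to 23.4 and 5.05 CPM in knockout and 12.6 and 22.6 CPM in wild type. No marker of these lists was at 0 in all libraries. The part of these cells in the Frizzled values was not tested.

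Genes whose pattern over the 4 libraries was most like that of 2 members were sought among the 10771 non-Frizzled genes that averaged 5 CPM or more, by the Euclidean distance of centred log2 CPM. For Fzd10 the nearest were Lrrn4 (distance 0.082), DQ267101 (0.13) and Zfp358 (0.146), and 4 genes in all lay within 0.2. Lrrn4 had 140 and 195 counts in the libraries labelled knockout, against 89 and 72 in wild type. For Fzd5 the nearest were Shq1 (0.017), Nhp2 (0.022) and Rpusd2 (0.023), and 772 genes lay within 0.2, as its levels differed little.

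The rest of the pathway was described through 9 lists of genes, by role, with 0 members past the adjusted threshold in either direction in any list. The lists share genes, so their medians are not independent. Of the tested beta-catenin targets, Axin2, Lef1, Tcf7, Znrf3, Rnf43 and Notum also stand in other lists. Medians are set beside 0.00, the median of all genes tested, and counts of genes whose groups did not overlap beside the 11.6% of all genes with both knockout libraries above wild type and the 12.7% with both below.

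Wnt ligands were scarce. Of 19 genes, 6 passed the filter, and Wnt1 and Wnt2 had no count in any library. All 19 together made 13.4 and 12.3 CPM in the libraries labelled knockout, against 17.7 and 13.5 CPM in wild type. The median log2 fold change of the 6 was -0.33, with 1 positive and 5 negative. Wnt6 had 47 and 48 counts in knockout and 79 and 44 in wild type, at -0.33 (SE 0.54). Wnt9a was at -0.16 (SE 0.68) and Wnt7b at -1.0 (SE 0.74).

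Of the genes that let cells secrete Wnts, Porcn, which adds the lipid to Wnt, was at -0.01 (SE 0.29). Wls, which carries Wnts to the surface, had 64 and 441 counts in the libraries labelled knockout, against 77 and 111 in wild type. As with Fzd7, knockout 2 alone was high, and the log2 fold change of 1.49 (SE 0.83) was -0.55 without knockout 2.

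The co-receptors were abundant and steady. Lrp6 had 2463 and 2587 counts in the libraries labelled knockout, against 2441 and 2567 in wild type, and was at 0.06 (SE 0.21), and Lrp5 was at -0.17 (SE 0.23). Ptk7 and Ror2, receptors of the polarity branch, were at -0.41 (SE 0.37) and -0.46 (SE 0.43). The 9 tested genes of this list had a median of -0.17, with 3 positive and 6 negative. The groups did not overlap for 2 of them, Ryk and Smo, both lower in the libraries labelled knockout. Smo stands in the list and in its median, but it is the signal transducer of the Hedgehog pathway and no Wnt receptor. Ndp, which encodes norrin, the ligand of Fzd4, had no count in any library.

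Frizzled proteins are removed from the surface by the ubiquitin ligases Znrf3 and Rnf43, which R-spondins and their LGR receptors hold back. Lgr4 had 2082 and 3383 counts in the libraries labelled knockout, against 1620 and 2116 in wild type, with overlapping groups and a log2 fold change of 0.60 (SE 0.31), which was 0.16 without knockout 2. Znrf3 was at 0.11 (SE 0.29) and Rspo1 at 0.21 (SE 0.64). The median of the 6 tested genes was 0.03, with 3 positive and 3 negative.

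Among Wnt antagonists, 9 of 16 genes were tested, with 3 positive and 6 negative and a median of -0.08. The median was 0.12 with no filter on low counts. The list is headed as secreted antagonists, but its tested genes include Kremen1, Kremen2 and Apcdd1, which encode membrane proteins. Sfrp1, a soluble protein with a Frizzled-like domain, was the most abundant, with 2609 and 3344 counts in the libraries labelled knockout and 2691 and 2262 in wild type, at 0.31 (SE 0.25). Its relatives Sfrp2 and Sfrp4 were at -0.20 (SE 0.29) and -0.59 (SE 0.46). The groups did not overlap for 1 of the 9 tested genes, Sfrp2, lower in the libraries labelled knockout. Dkk3, a member of the Dickkopf family, was at -1.04 (SE 0.65), with 350 and 116 counts in the libraries labelled knockout and 730 and 245 in wild type. The spread within each group was wide, and without wild type 1 the log2 fold change was -0.04. Each knockout library lay below the wild-type library of its number. With that number fitted as a block, Dkk3 was at -1.03 (SE 0.253) and still not called (adjusted p 0.888, edgeR). Kremen1, a receptor for Dickkopf proteins, was at -0.22 (SE 0.29).

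Inside the cell, all 11 genes for Dishevelled and the destruction complex were tested, with 6 positive and 5 negative and a median of 0.07. Ctnnb1, which encodes beta-catenin, had 15982 and 18620 counts in the libraries labelled knockout, against 14421 and 14971 in wild type. Its groups did not overlap, at a log2 fold change of 0.28 (SE 0.20), which was 0.13 without knockout 2. Axin2, a scaffold of the complex and itself a target of beta-catenin, had 809 and 723 counts in knockout and 546 and 564 in wild type. Its groups did not overlap either, at 0.51 (SE 0.25). As many genes of the list were separated the other way: Dvl1, a Dishevelled, was at -0.37 (SE 0.25) and Btrc, which marks beta-catenin for breakdown, at -0.22 (SE 0.24), so 2 of 11 lay above wild type in both libraries and 2 of 11 below. Dvl2, a Dishevelled, was high only in knockout 2 and stood at 0.40 (SE 0.29), while Apc and Csnk1a1 were at 0.18 (SE 0.24) and 0.10 (SE 0.21).

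The 8 TCF/LEF factors and co-activators had a median of 0.09, with 6 positive and 2 negative. The groups did not overlap for 1 of 8, Pygo1, lower in the libraries labelled knockout. It had 36 and 44 counts there and 53 and 72 in wild type, at -0.60 (SE 0.52). Tcf7 had 2267 and 1102 counts in the libraries labelled knockout, against 2839 and 2171 in wild type, with overlapping groups, at -0.54 (SE 0.35), which was -0.13 without knockout 2. Tcf7l1, the main repressor of this family in embryonic stem cells, was at 0.16 (SE 0.30), Lef1 at 0.74 (SE 0.59; 0.14 without knockout 2) and Pygo2 at 0.00158 (SE 0.26). Among 16 target genes of beta-catenin, 12 were tested, with 8 positive and 4 negative and a median of 0.31. The groups did not overlap for 1 of 12 above wild type, Axin2, and for 1 of 12 below it, Nkd2. Nkd2 had 105 and 79 counts in the libraries labelled knockout and 154 and 117 in wild type, at -0.52 (SE 0.43). Myc, a growth regulator, was at 0.51 (SE 0.60) and was set by wild type 1, since it had 1262 and 1090 counts in knockout and 310 and 1394 in wild type. Ccnd1, a D-type cyclin, was at 0.30 (SE 0.28).

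Planar cell polarity genes, all 14 tested, had a median of 0.07 with 8 positive and 6 negative. Celsr3, an adhesion receptor that acts with Fzd3 in axon tracts, had 410 and 616 counts in the libraries labelled knockout, against 291 and 356 in wild type, at 0.72 (SE 0.34), which was 0.35 without knockout 2. Its groups did not overlap, and nor did those of Invs, at 0.65 (SE 0.41; 0.28 without knockout 2). Prickle2, a core polarity gene, was separated the other way, with 141 and 206 counts in knockout and 218 and 291 in wild type, at -0.50 (SE 0.40), so 2 of 14 lay above wild type in both libraries and 1 of 14 below. Vangl1 was at 0.52 (SE 0.47), highest in knockout 2, and Vangl2 and Scrib at -0.35 (SE 0.33) and -0.23 (SE 0.23).

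**Figure D4:**
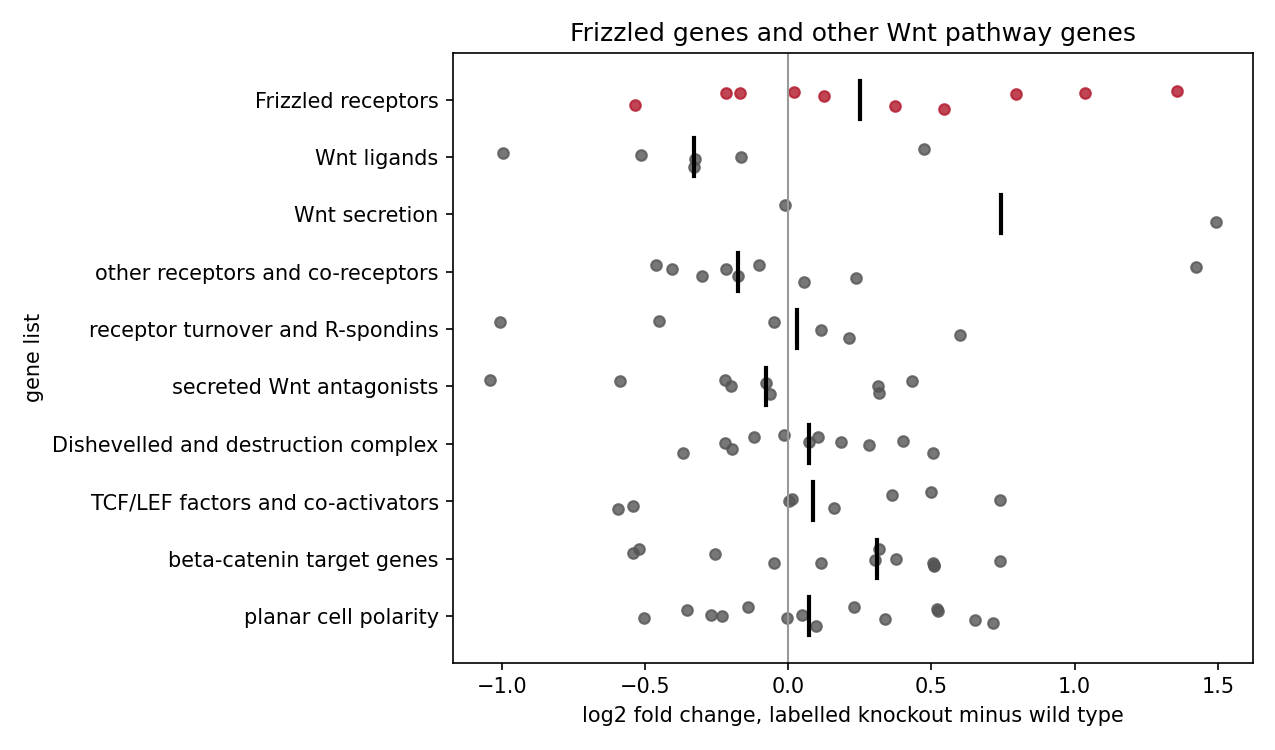
Points are the fitted log2 fold changes (labelled knockout minus wild type) of the tested genes of each list, with vertical jitter, and black ticks are list medians. The Frizzled genes spread from -0.54 to 1.36 with a median of 0.25, and the list medians run from -0.33 for Wnt ligands to 0.74 for the 2 Wnt secretion genes.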

How the data were processed

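The authors deposited raw counts of reads, 1 row per Entrez gene and 1 column per library, with no normalization. HISAT2, featureCounts and mm10 are named in the submitters' processing notes, with versions, annotation, strand and multi-read settings not given in the sources used here. Symbols and coordinates came from RefSeq on GRCm38.p6, the assembly behind mm10, with 24061 of 24116 genes matched. Exon and coding lengths and transcripts came from GENCODE M21 on GRCm38.

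Genes were kept by filterByExpr, scaled by TMM and tested with edgeR 4.0.16 (quasi-likelihood F test, genotype alone, R 4.3.3), with Benjamini-Hochberg adjustment over 14194 genes and a threshold of 0.05. Fold changes set knockout over wild type, and each SE was derived from the fold change and its F statistic (size over root F). DESeq2 1.42.0, limma-voom 3.58.1 and other settings were alternatives. At these depths a count of 0 allows 3 counts, or 0.156 to 0.165 CPM, for counting error only.

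Members and lists were chosen with earlier results of these data known. Named genes were all Frizzled genes, Kdm2a and, per list, the 3 most abundant tested members and the 2 largest changes that averaged 5 CPM or more. Genes of like pattern were the 3 nearest to the most abundant Frizzled gene and to the one with the largest change above 5 CPM. Wnt1, Wnt2, Ndp, Ryk, Smo, Dvl1, Btrc, Prickle2, Nkd2, Pygo1, Rnf43, Notum, Fzd10os and single markers were named after their values were seen.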

Additional observations from a re-analysis of the deposited data

How the results depend on the processing

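The number of genes called was 0 in the fit as reported, 2 with DESeq2 and 4 with edgeR's likelihood ratio test. It ran from 0 to 91 when 1 library was left out: 91 without knockout 1, 8 without knockout 2 and 0 without either wild-type library. There the lone library is assumed to vary like the other group. No Frizzled gene was called under any setting. Each Frizzled gene was refitted under the other settings with all libraries kept. Of these values, 1 per gene and setting, 87 kept the direction and 2 turned it. Both were for Fzd4: -0.01 with upper-quartile scaling and -0.02 with library totals. Among pathway genes, Pygo2 became -0.03 with upper-quartile scaling, -0.04 with library totals, -0.0018 with no filter and -0.02 with limma-voom, while limma-voom gave 0.02 for Porcn and 0.07 for Wnt9a. The median of Wnt ligands was -0.37 with either scaling and -0.21 with limma-voom, and that of the other receptors -0.21 with upper-quartile scaling, -0.22 with library totals and -0.14 with no filter. The Dishevelled list moved to 0.03 and 0.02 with these scalings, and planar cell polarity to 0.04 and 0.03, to 0.05 with a filter at 1 CPM and to 0.03 with limma-voom. Medians that crossed 0 were those of the antagonists, 0.12 with no filter, and of the turnover list, -0.01 with library totals, which was 0.21 with no filter. The Frizzled median of 0.25 was 0.12 with the filter at 1 CPM, which drops Fzd1, 0.21 with upper-quartile scaling and 0.20 with library totals. The causes of the other moves were not tested.

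Leaving out 1 library turned the direction of 5 Frizzled genes, with ranges from -0.48 to 0.11 for Fzd3, from -0.27 to 0.39 for Fzd4, from -1.14 to 0.52 for Fzd6, from -0.26 to 0.81 for Fzd8 and from -1.13 to 0.46 for Fzd9. Pathway genes that turned ranged from -0.01 to 0.42 for Apc, -0.01 to 0.24 for Csnk1a1, -0.02 to 0.73 for Dvl2, -0.45 to 0.07 for Kremen1, -0.34 to 0.02 for Lrp5, -0.02 to 0.12 for Lrp6, -0.20 to 1.97 for Myc, -0.27 to 0.32 for Porcn, -0.92 to 0.03 for Ptk7, -0.32 to 0.26 for Pygo2 and -1.16 to 0.01 for Ror2. Others ranged from -0.28 to 0.99 for Rspo1, -0.27 to 0.49 for Tcf7l1, -0.34 to 1.05 for Vangl1, -0.55 to 2.31 for Wls, -0.69 to 0.16 for Wnt6, -0.78 to 0.95 for Wnt9a and -0.12 to 0.31 for Znrf3. List medians ranged from -0.53 to -0.04 for Wnt ligands, -0.31 to 1.18 for secretion, -0.21 to 0.03 for other receptors, -0.85 to 0.21 for turnover, -0.34 to 0.02 for antagonists, -0.04 to 0.06 for the Dishevelled list, 0.01 to 0.18 for TCF/LEF, 0.03 to 0.42 for targets and -0.02 to 0.17 for planar cell polarity. The Frizzled median ranged from 0.24 to 0.43 in these fits. Some genes kept their direction but moved widely, from -2.00 to -0.04 for Dkk3, -2.01 to -0.39 for Wnt7b, -1.31 to -0.10 for Sfrp4, -1.11 to -0.13 for Tcf7, -0.76 to -0.03 for Vangl2, 0.14 to 1.65 for Lef1, 0.16 to 0.93 for Lgr4, 0.28 to 0.98 for Invs, 0.03 to 0.66 for Ccnd1, 0.08 to 0.51 for Sfrp1 and 0.13 to 0.42 for Ctnnb1.

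Shares of the Frizzled pool depend on the length used. With coding length they averaged 52.1% for Fzd5, 33.2% for Fzd7, 5.03% for Fzd10, 3.63% for Fzd3, 1.68% for Fzd2, 1.10% for Fzd9 and 1.00% for Fzd4. With no length they were 52.0% for Fzd5, 32.5% for Fzd7, 5.0% for Fzd10, 4.13% for Fzd3, 1.64% for Fzd2 and 1.11% for Fzd9. RefSeq spans, an alternative chosen after seeing the data, gave 1.53% for Fzd8 and 9.24% for Fzd10. The share of Fzd10 ranged from 7.86% to 9.05% when 1 library was left out.

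The labels number the libraries 1 and 2 in both groups without saying what a number shares. With the number as a replicate block, 0 genes were called, and 735 had an unadjusted p under 0.05, against 242 without it. The SE with the block was 0.356 for Fzd9 and 0.396 for Fzd6, against 0.635 and 0.594 without it. For Fzd1 it rose, to 0.953 from 0.889. The replicate block gave 0.02 for Porcn, -0.03 for Pygo2 and 0.04 for Wnt9a, and medians of -0.23 for Wnt ligands and 0.02 for planar cell polarity. Deviations of libraries with the same number correlated at r = 0.347 over 14194 genes. In 6 of 10 Frizzled genes both libraries of 1 number lay above both of the other, against 50.0% of all genes tested.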
